A study of Mus musculus with 4 samples.

Results

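The genes of cholesterol synthesis described here are Hmgcs1, Idi1, Fdps, Fdft1, Sqle, Lss, Cyp51 and Insig1, 8 of the 27974 genes on the array. They were chosen by name: every non-control probe whose gene name in the scanner files equals one of these symbols was taken, 18 probes in all, on each of 4 arrays. All 8 genes had a probe well above background on all 4 arrays, and 15 of the 18 probes did.

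Total RNA from the prostates of male mice 8 weeks of age was labelled with Cy3 and hybridised to Agilent expression arrays, with 1 array for each of 4 groups. The groups were C57BL/6 mice given olive oil, C57BL/6 mice given γ-TmT at 600 mg/kg by gavage, TRAMP mice given olive oil, and TRAMP mice given the same dose of γ-TmT. TmT is a mixture of tocopherols, which are forms of vitamin E, and is rich in γ-tocopherol. Every group had 3 mice, had been kept on an AIN-76A diet, was fasted overnight before the gavage and was killed 12 hours after it. TRAMP is a transgenic model of prostate cancer in which the rat probasin promoter drives the SV40 early region in prostate epithelium, and C57BL/6 is a common inbred strain. The labels do not give the strain background of the TRAMP animals, nor whether an array held RNA of 1 mouse or a pool. With 1 array per group, a difference between a pair of arrays is given without a test, and a difference between genotypes is one between these lines.

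Cholesterol is built from acetyl-CoA by way of mevalonate, which is turned into isoprenoid units, then into squalene, and then into lanosterol and cholesterol. When sterols run low in the endoplasmic reticulum, the transcription factor SREBP-2 is released from the membrane by its escort SCAP and raises the genes of the pathway together. Insig1 protein holds SCAP back when sterols are plentiful, and the Insig1 gene is itself a target of SREBP, so its mRNA serves as a readout of the same control. The prostate is known for a high cholesterol content, and the pathway has long been studied in prostate cancer.

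Promoters of 5 of the 8 genes, Cyp51, Hmgcs1, Idi1, Insig1 and Lss, were matched by symbol in a RefSeq table on build GRCm38.p6. Sqle, Fdps and Fdft1 were not matched. Printed here are the promoters of Cyp51, Insig1, Lss and Hmgcs1. In the values that follow, the probes used for the first 3 were lower on both TmT arrays than on both oil arrays. That of Hmgcs1 was not. Each is a stretch of 240 bases that ends just before the gene's start in the table, read 5′ to 3′ on the gene's strand, except that the 210 bases of Lss end 40 bases before that start. Capitals mark CCAAT (or ATTGG, its reverse complement), the motif of the factor NF-Y, and also CACGTG, the E-box. They also mark TCACNCCAC, a form of the sterol response element, which SREBP binds.
Cyp51 promoter (chr5:4104698-4104937, minus strand): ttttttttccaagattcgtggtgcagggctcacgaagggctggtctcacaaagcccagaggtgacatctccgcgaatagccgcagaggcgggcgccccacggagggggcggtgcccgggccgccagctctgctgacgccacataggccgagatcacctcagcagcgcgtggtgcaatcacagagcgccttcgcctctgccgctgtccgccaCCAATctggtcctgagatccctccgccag
Insig1 promoter (chr5:28071172-28071411, plus strand): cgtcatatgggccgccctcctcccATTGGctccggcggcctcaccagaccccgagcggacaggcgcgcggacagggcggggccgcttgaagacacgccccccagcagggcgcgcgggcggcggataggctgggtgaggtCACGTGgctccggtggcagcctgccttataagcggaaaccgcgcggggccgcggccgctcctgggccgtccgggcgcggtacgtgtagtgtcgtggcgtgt
Lss promoter (chr10:76531355-76531564, plus strand): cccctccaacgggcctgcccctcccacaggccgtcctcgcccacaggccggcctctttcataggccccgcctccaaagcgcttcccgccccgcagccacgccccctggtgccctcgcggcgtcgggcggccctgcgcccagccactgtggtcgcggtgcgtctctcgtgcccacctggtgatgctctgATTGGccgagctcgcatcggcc
Hmgcs1 promoter (chr13:119690111-119690350, plus strand): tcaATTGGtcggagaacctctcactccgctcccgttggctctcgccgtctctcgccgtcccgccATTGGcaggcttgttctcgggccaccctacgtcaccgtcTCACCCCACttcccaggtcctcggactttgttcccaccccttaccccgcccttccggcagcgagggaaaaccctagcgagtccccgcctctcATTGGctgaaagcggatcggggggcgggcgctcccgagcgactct
The motifs were searched on both strands of the 250 bases upstream of each start in the table, and positions count back from that start. CCAAT lay in all 5 promoters that were matched, against 33.8% of 32851 promoters in the table. Of 12 other sterol pathway genes with a promoter there, 11 had CCAAT too, so it is not particular to the 8. It was found once each in Cyp51 (from -29), Insig1 (from -216) and Lss (from -62), at 2 places in Idi1, and at 3 places in Hmgcs1. TCACNCCAC was found in Hmgcs1 alone among the 5, from -137 to -129, in 0 of those 12 genes, and in 1.05% of all promoters. CACGTG was found in Insig1 alone among the 5, from -101 to -96, in 3 of those 12 genes, and in 6.02% of all promoters. The GC box GGGCGG, left in lower case, lay in all 5 and in 11 of those 12 genes, against 32.7% of all promoters. These matches describe letters in a window, and the motifs were chosen with the expression values known. Only exact matches were counted, so a promoter without a match may still hold a site of other letters.

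Signals were expressed as log2 of the scanner's processed signal minus log2 of the 75th percentile of its array. A level of 0 thus means a signal equal to that percentile, and each difference is a log2 difference between arrays, where 1 is a doubling. The ± after a difference combines the errors that the scanner software gives for both spots. It says how well each spot was read, and leaves out any spread between mice. The array of TRAMP mice after TmT was the dimmest: its 75th percentile was 71.3, against 118, 139 and 161 on the others, and 63.9% of its spots were well above background against 68.1% to 74.1%. All 10 luminal epithelial markers of the prostate were well above background on all 4 arrays, as were all 6 seminal vesicle genes. Since whole tissue was measured, fewer cells of a type and less RNA per cell cannot be told apart in any value given here.

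**Figure D1:**
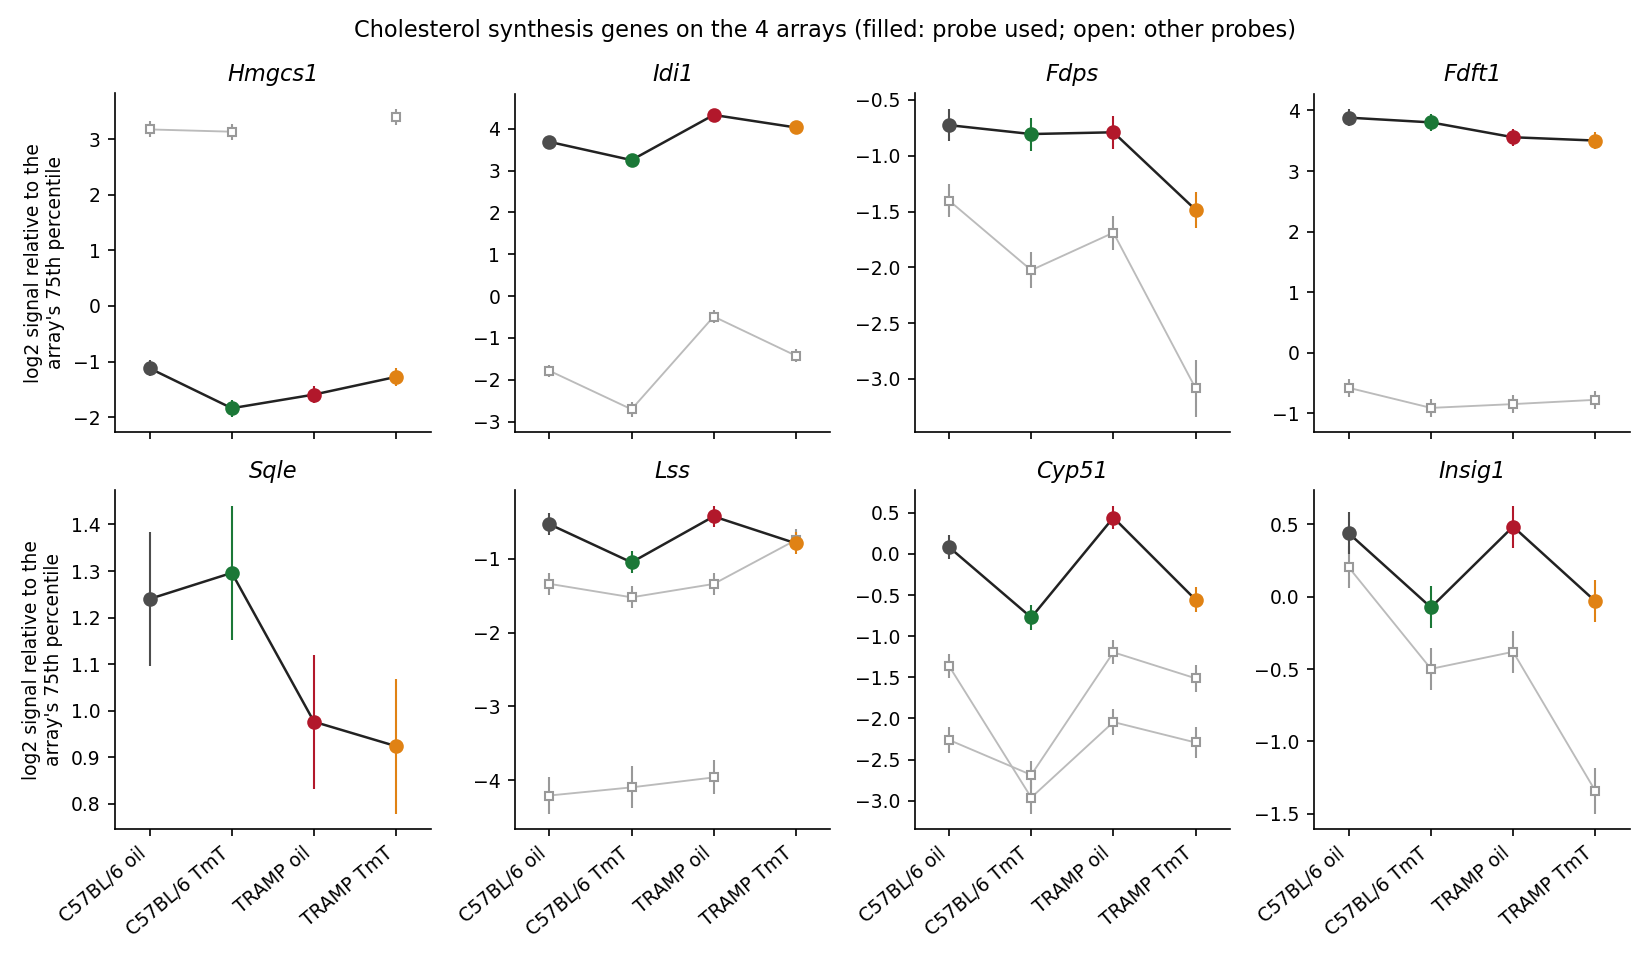
Level of every probe of the 8 genes on the 4 arrays, as log2 signal relative to the array's 75th percentile. Filled circles show the probe used for the gene, open squares its other probes (drawn where well above background), lines join the spots of 1 probe, and bars are the scanner's spot error. The probes used for Cyp51, Insig1 and Lss share a zigzag that is lower on both TmT arrays than on both oil arrays. Another probe of Lss and another of Cyp51 do not share it.

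Entry into the pathway was represented by Hmgcs1, the cytosolic HMG-CoA synthase, which acts ahead of mevalonate. Its probe stood at -1.12 on the C57BL/6 oil array, -1.84 on C57BL/6 TmT, -1.59 on TRAMP oil and -1.28 on TRAMP TmT. The lowest value was that of C57BL/6 after TmT, and the highest that of C57BL/6 after oil. TmT minus oil was -0.72 ± 0.21 in C57BL/6 and 0.32 ± 0.22 in TRAMP, so the sign differed between the lines. TRAMP minus C57BL/6 was -0.47 ± 0.21 after oil and 0.56 ± 0.22 after TmT. A brighter Hmgcs1 probe stood at 3.18 on C57BL/6 oil, 3.13 on C57BL/6 TmT and 3.40 on TRAMP TmT. Its TRAMP oil spot carried an outlier mark and was left out. With that probe TmT minus oil in C57BL/6 was -0.04 ± 0.20, within the spot error of 0. TRAMP minus C57BL/6 after TmT was 0.27 ± 0.20 with it. With the marked spot kept, it gave 0.64 for TmT minus oil in TRAMP and -0.42 for TRAMP minus C57BL/6 after oil. The remaining Hmgcs1 probe was not well above background on any array. The drop after TmT in C57BL/6 thus rests on 1 dim probe. The brighter probe shared the signs of the other differences, but for those that use the TRAMP oil array only through a marked spot.

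The isoprenoid steps were represented by Idi1, which isomerises isopentenyl diphosphate, and Fdps, which joins isoprenoid units into farnesyl diphosphate. Idi1 stood at 3.69 on C57BL/6 oil, 3.25 on C57BL/6 TmT, 4.33 on TRAMP oil and 4.03 on TRAMP TmT. Both TRAMP arrays were above both C57BL/6 arrays, and within each line the TmT array was below the oil array. TRAMP minus C57BL/6 was 0.64 ± 0.20 after oil and 0.78 ± 0.20 after TmT. The second Idi1 probe had the same signs with larger sizes, 1.295 ± 0.21 and 1.28 ± 0.24 for genotype. For TmT minus oil this probe gave -0.92 ± 0.23 in C57BL/6 and -0.94 ± 0.22 in TRAMP, against -0.44 ± 0.20 and -0.30 ± 0.20 for the brighter one. The scanner files place both Idi1 probes on chromosome 2 of build mm9 (the brighter at 53553575 to 53553634), whereas the RefSeq promoter of Idi1 lies on chromosome 13 of GRCm38. The sequence under the probes was not looked up, so which locus these probes read is uncertain.

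Fdps stood at -0.73 on C57BL/6 oil, -0.81 on C57BL/6 TmT, -0.79 on TRAMP oil and -1.48 on TRAMP TmT. The first 3 of these lay within their spot errors of one another, and the TRAMP TmT array was the low one. TmT minus oil was -0.08 ± 0.21 in C57BL/6 and -0.69 ± 0.22 in TRAMP. The second Fdps probe was also lowest on the TRAMP TmT array, with TmT minus oil of -1.39 ± 0.30 in TRAMP, but it was lower after TmT in C57BL/6 too, at -0.62 ± 0.22. With normexp background correction in place of the scanner's own, the TRAMP difference of Fdps turned to 0.07.

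The squalene steps were the steadiest of the 8 genes. Fdft1 encodes squalene synthase, which commits farnesyl diphosphate to sterols, and stood at 3.88 on C57BL/6 oil, 3.80 on C57BL/6 TmT, 3.56 on TRAMP oil and 3.50 on TRAMP TmT. Sqle encodes squalene epoxidase, an oxygen-dependent control point of the pathway, and stood at 1.24, 1.296, 0.98 and 0.92 in the same order. In both genes the 2 C57BL/6 arrays lay above the 2 TRAMP arrays, and within a line the oil and TmT arrays were within the spot error of each other. TRAMP minus C57BL/6 was -0.32 ± 0.20 and -0.30 ± 0.20 for Fdft1 after oil and after TmT, and -0.26 ± 0.20 and -0.37 ± 0.20 for Sqle. TmT minus oil was -0.08 ± 0.20 in C57BL/6 and -0.05 ± 0.20 in TRAMP for Fdft1. For Sqle it was 0.06 ± 0.20 and -0.05 ± 0.20. Over the 4 arrays Sqle spanned 0.37 and Fdft1 0.38 on the log2 scale, the smallest spans of the 8. Sqle had 1 probe, and the second probe of Fdft1 did not repeat the genotype sign after TmT, at 0.13 ± 0.21.

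The sterol steps were represented by Lss, the cyclase that folds epoxidised squalene into lanosterol, and by Cyp51, which removes a methyl group from lanosterol. Lss stood at -0.53 on C57BL/6 oil, -1.05 on C57BL/6 TmT, -0.43 on TRAMP oil and -0.79 on TRAMP TmT. Cyp51 stood at 0.08, -0.77, 0.44 and -0.56 in the same order, and spanned 1.21, the widest of the 8. In both genes TRAMP oil was highest, then C57BL/6 oil, then TRAMP TmT, and C57BL/6 TmT was lowest.

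TmT minus oil for Cyp51 was -0.85 ± 0.21 in C57BL/6 and -0.998 ± 0.21 in TRAMP, which are signals of 0.553 and 0.501 times those after oil. These were the largest TmT differences of the 8 genes in each line. The probe used for Cyp51 lies on chromosome 5 of mm9 at 4092033 to 4092439, and the other 2 Cyp51 probes were also lower after TmT in both lines. Their sizes were unlike, at -1.60 ± 0.24 and -0.42 ± 0.23 in C57BL/6 and at -0.25 ± 0.24 and -0.32 ± 0.22 in TRAMP. For genotype after oil the 3 probes of Cyp51 did not share a sign, with 0.36 ± 0.20, -0.68 ± 0.21 and 1.07 ± 0.21. For Lss TmT minus oil was -0.52 ± 0.21 in C57BL/6 and -0.36 ± 0.21 in TRAMP. A second Lss probe, well above background on all 4 arrays, was at -0.18 ± 0.21 in C57BL/6 but at 0.60 ± 0.21 in TRAMP.

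Feedback was represented by Insig1, whose product retains SCAP in the endoplasmic reticulum. It stood at 0.44 on C57BL/6 oil, -0.07 on C57BL/6 TmT, 0.48 on TRAMP oil and -0.03 on TRAMP TmT. The 2 oil arrays lay within their spot error of each other, as did the 2 TmT arrays, and the oil arrays were the higher pair. TmT minus oil was -0.51 ± 0.20 in C57BL/6 and -0.51 ± 0.21 in TRAMP, so the signal after TmT was 0.701 and 0.700 times that after oil. TRAMP minus C57BL/6 was 0.05 ± 0.20 after oil and 0.04 ± 0.21 after TmT. The second Insig1 probe was again lower after TmT in both lines, at -0.70 ± 0.21 and -0.96 ± 0.21, but was lower in TRAMP too, at -0.58 ± 0.20 after oil and -0.84 ± 0.21 after TmT.

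**Figure D2:**
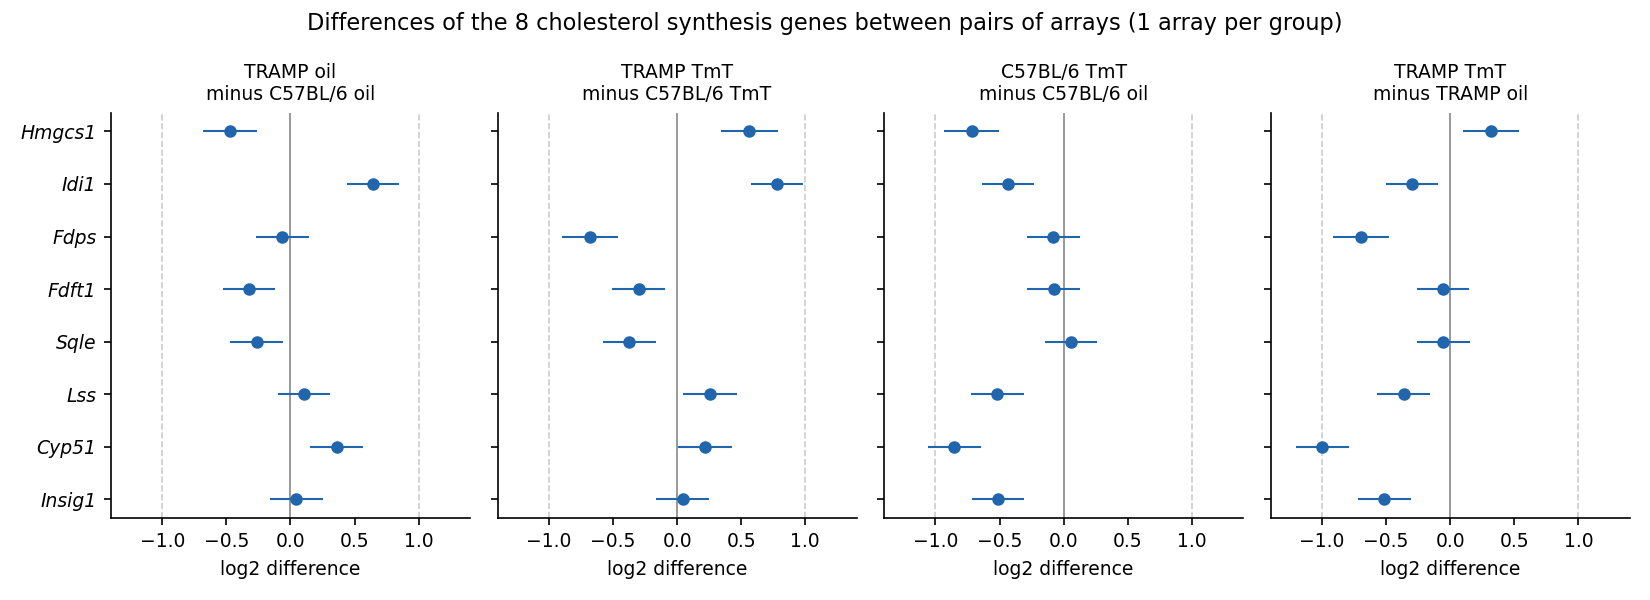
Log2 difference of each of the 8 genes in the 4 comparisons, with the scanner's spot error as bars and dashed lines at a 2-fold difference. In the 2 comparisons of TmT with oil, 7 of 8 points lie left of 0, while points in the 2 genotype comparisons lie on both sides.

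The comparison of TmT with oil in C57BL/6 mice set the C57BL/6 TmT array against the C57BL/6 oil array. Of the 8 genes, 7 were below 0, Fdps and Fdft1 by less than the spot error, and Sqle was above 0 by less than that error. The lowest were Cyp51 (-0.85), Hmgcs1 (-0.72), Lss (-0.52) and Insig1 (-0.51). The median of the 8 was -0.47, against 0.02 over 18665 genes measured on both arrays, of which 48.0% were below 0. None of the 8 was at least 2-fold different, against 5.74% of all genes, and 2 were at least 1.5-fold different (Cyp51 and Hmgcs1), against 20.8%. Over the 17 probes of these genes that could be compared, 15 were lower after TmT. At least 2-fold lower was 1 of them, a Cyp51 probe that was not the one used (-1.60). These probes read the same 8 genes on the same arrays, so they are no further evidence. The share over all probes was not counted. The median moved to -0.26 where outlier-marked spots were kept, since Hmgcs1 was then read from its brighter probe.

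The comparison of TmT with oil in TRAMP mice was made in the same way in the transgenic line, on 2 other arrays. Again 7 of the 8 genes were below 0, led by Cyp51 (-0.998), Fdps (-0.69) and Insig1 (-0.51), and Hmgcs1 was above it at 0.32. Fdft1 and Sqle were within the spot error of 0. The median was -0.33, against 0.10 over 17465 genes, of which 44.1% were below 0. None was at least 2-fold different, against 13.5% of all genes, and 2 were at least 1.5-fold different (Cyp51 and Fdps), against 35.8%. Cyp51 lay just inside the 2-fold limit, at a signal 0.501 times that after oil, and its difference ran from -1.12 with the signal before multiplicative detrending to -0.72 with normexp background correction and -0.52 with the mean over its 3 probes. Of 15 probes of the same 8 genes, 12 were lower after TmT, and the share over all probes was not counted. At least 2-fold lower was 1 of them, an Fdps probe that was not the one used (-1.39). Adipocyte markers were far lower on the same array: all 8 measured were below 0, with a median of -2.73, and the summed level of the 11 markers on the array was 30.9 after TmT against 257 after oil. Leptin (Lep), on the same list, was not well above background on any array, while Adipoq was at -3.49 ± 0.21. The summed level on the C57BL/6 arrays was 46.2 after oil and 25.7 after TmT, and the part of these markers in the values of the 8 genes was not tested. Markers of other cell types were higher in the same pair of arrays, with medians of 1.12 for fibroblasts (6 of 6 above 0), 0.81 for basal epithelium (4 of 4), 0.63 for luminal epithelium (6 of 10) and 0.60 for smooth muscle (4 of 5), and their part was not tested either.

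In the 2 lines side by side, 6 of the 8 genes (Idi1, Fdps, Fdft1, Lss, Cyp51 and Insig1) were lower after TmT in each, as were 24.4% of 16961 genes well above background on all 4 arrays. In Fdft1 these differences were within the spot error, as was that of Fdps in C57BL/6. In 4 of the 8 (Fdps, Lss, Cyp51 and Insig1) both oil arrays lay above both TmT arrays, as in 12.1% of those genes. For Fdps this holds only narrowly, since TRAMP oil and C57BL/6 TmT lay within the spot error of each other. Within that pattern Lss, Cyp51 and Insig1 had the order TRAMP oil, C57BL/6 oil, TRAMP TmT, C57BL/6 TmT, which 3.02% of those genes had. The 2 oil arrays of Lss, and both pairs of Insig1, lay within spot error. No other probe of Lss, Cyp51 or Insig1 that was well above background on all 4 arrays repeated this order. A second Lss probe, at -0.75 on TRAMP TmT and -1.34 on each oil array, also lacked the wider pattern of oil above TmT. A Cyp51 probe at -1.51 on TRAMP TmT and -2.26 on C57BL/6 oil lacked it too. The difference between the lines in the TmT effect had a median of 0.01 over the 8 genes. It was largest for Hmgcs1, at 1.04 ± 0.30, and for Fdps, at -0.61 ± 0.30, and could not be tested with 1 array per group.

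**Figure D3:**
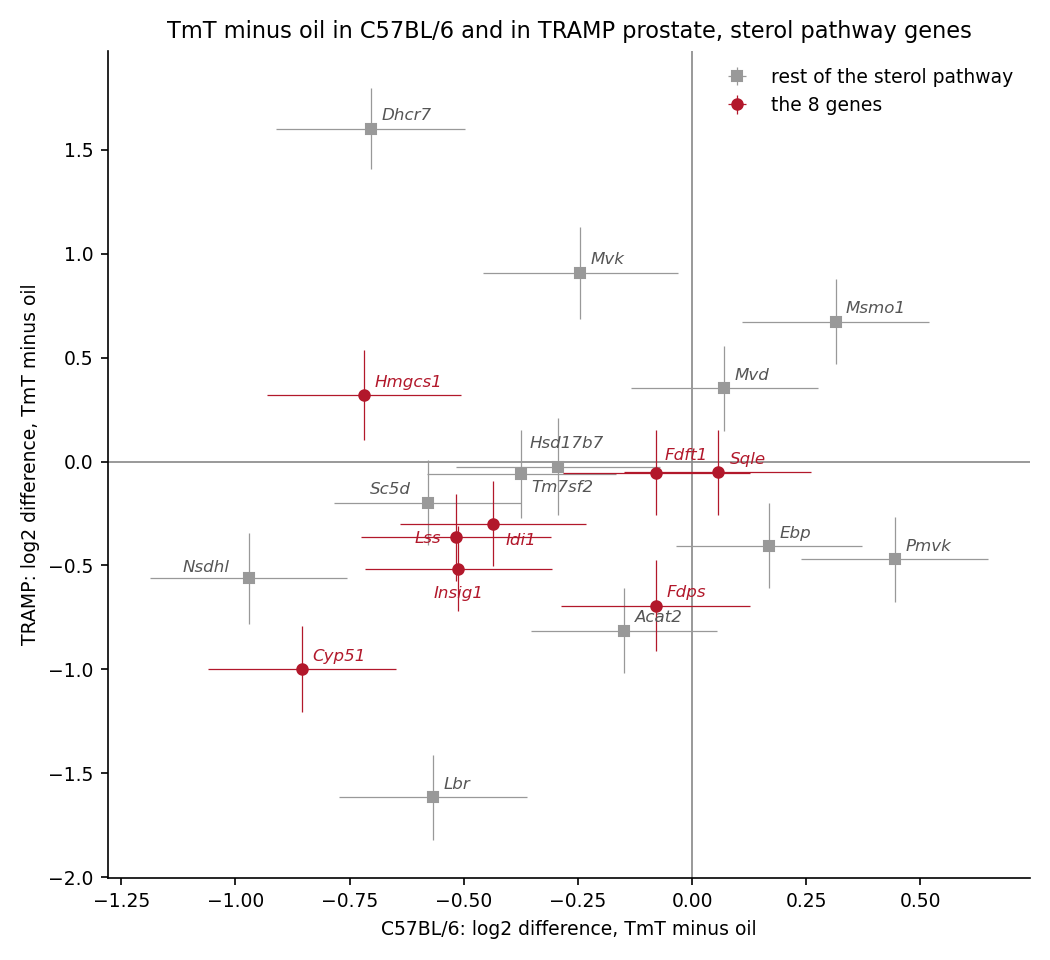
TmT minus oil in C57BL/6 (horizontal axis) against TmT minus oil in TRAMP (vertical axis), both as log2 differences with spot errors, for the 8 genes (circles) and other genes of the sterol pathway (squares). Most of the 8 genes lie in the lower left, with Cyp51 farthest out, and Hmgcs1, Mvk and Dhcr7 in the upper left.

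The comparison of TRAMP with C57BL/6 after oil showed no common direction. Idi1 (0.64), Cyp51 (0.36), Lss (0.11) and Insig1 (0.05) were above 0, and Hmgcs1 (-0.47), Fdft1 (-0.32), Sqle (-0.26) and Fdps (-0.06) below it. The median of the 8 was -0.01, against -0.07 over 18921 genes. None was at least 2-fold different, against 15.6% of all genes, and Idi1 was at least 1.5-fold different, against 36.7% of all genes. Of 16 probes of these genes 2 were at least 2-fold higher, neither of them the probe used: 1 of Idi1 (1.295) and 1 of Cyp51 (1.07). The share over all probes was not counted. On the same pair of arrays the 12 proliferation genes had a median of 2.49 and the 10 measured adipocyte markers one of 2.39. Medians were -1.03 for luminal epithelium, -0.76 for fibroblasts (6 of 6 below 0) and -0.40 for leukocytes (10 of 10 below 0), and the part of these markers in the 8 genes was not tested.

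The comparison of TRAMP with C57BL/6 after TmT gave a similar split. Idi1 (0.78), Hmgcs1 (0.56), Lss (0.26), Cyp51 (0.22) and Insig1 (0.04) were above 0, and Fdps (-0.68), Sqle (-0.37) and Fdft1 (-0.30) below it. The median was 0.13, against 0.01 over 17251 genes. None was at least 2-fold different, against 14.5% of all genes, and Idi1 and Fdps were at least 1.5-fold different, against 36.9%. Of 16 probes of these genes 2 were at least 2-fold higher, 1 of Idi1 (1.28) and 1 of Cyp51 (1.17). At least 2-fold lower was 1 probe, of Fdps (-1.06). None of them was the probe used. Proliferation genes had a median of 2.31 here, and the 8 measured adipocyte markers one of -0.27. This comparison shares 1 array with each TmT comparison, and the comparison after oil shares the others, so their values are not independent.

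Genotype and treatment were also fitted together over all 4 arrays with limma, in which the interaction serves as the error. For genotype 27 of 19925 genes passed an adjusted p of 0.05, which is 0.136%, and none of the 8 was among them. Idi1 came nearest, with a fitted TRAMP minus C57BL/6 difference of 0.71 ± 0.32 (SE, limma adjusted p = 0.372), in the same direction in 2 of 2 pairs of arrays. For treatment 0 genes passed in limma, which is 0%, while 1248 genes, Cyp51 among the 8, had an unadjusted p under 0.05. Cyp51 had a fitted TmT minus oil difference of -0.93 ± 0.32 (limma adjusted p = 0.778, unadjusted 0.0315), and was lower in 2 of 2 pairs. Insig1 followed at -0.51 ± 0.32 (limma adjusted p = 0.783) and Lss at -0.44 ± 0.32 (limma adjusted p = 0.803). With an intensity trend in the variance 2 genes passed for treatment, neither of them one of the 8. The error of this fit rests on 1 residual degree of freedom and a prior over genes.

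Over the 4 arrays the probes used for most of the 8 genes varied less than the median gene. The span from the lowest to the highest array had a median of 0.67 for them, against 0.84 over 16961 genes well above background on all arrays, and 6 of the 8 were below that median. Idi1 (1.08) and Cyp51 (1.21) were the exceptions. Centred on each gene's mean, the average profile of the 8 was 0.18 on C57BL/6 oil, -0.21 on C57BL/6 TmT, 0.18 on TRAMP oil and -0.15 on TRAMP TmT. Insig1 and Lss lay nearest to it, at root mean square distances of 0.0773 and 0.0868, and Idi1 farthest, at 0.339. Among 16953 other genes, the nearest profiles over the 4 arrays were those of Pde4b (0.0176), Zfp563 (0.0274), Wwp1 (0.0292), Slc35a3 (0.0301) and Xrcc5 (0.0303). With 4 points a gene, many genes can lie this near.

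The rest of the sterol pathway was followed in 14 further genes, all measured on all 4 arrays. Nsdhl, which acts after Cyp51 in removing methyl groups, had a TmT minus oil difference of -0.97 ± 0.22 in C57BL/6 and -0.56 ± 0.22 in TRAMP. Msmo1, another demethylating enzyme, did not share this direction, at 0.31 ± 0.20 and 0.67 ± 0.20.

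Of these 14 genes, 9 were below 0 after TmT in C57BL/6 with a median of -0.27, and 9 in TRAMP with a median of -0.13. At least 2-fold differences after TmT in TRAMP were those of Lbr (-1.62 ± 0.21) and Dhcr7 (1.60 ± 0.19). Lbr encodes a nuclear membrane protein with sterol reductase activity, and Dhcr7 the last enzyme before cholesterol. For genotype after oil, Lbr was at 1.28 ± 0.20 and Dhcr7 at -1.62 ± 0.19, both at least 2-fold, and after TmT no gene of the 14 was. Acat2, which makes acetoacetyl-CoA for Hmgcs1, was at -0.15 ± 0.20 and -0.81 ± 0.20 after TmT. The mevalonate kinases Mvk (-0.24 ± 0.21 and 0.91 ± 0.22) and Pmvk (0.44 ± 0.20 and -0.47 ± 0.20) had opposite signs in the 2 lines. Mvd, Tm7sf2, Hsd17b7, Ebp and Sc5d lay between -0.58 and 0.35 in both. None of the 14 passed limma's fit for genotype or treatment.

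**Figure D4:**
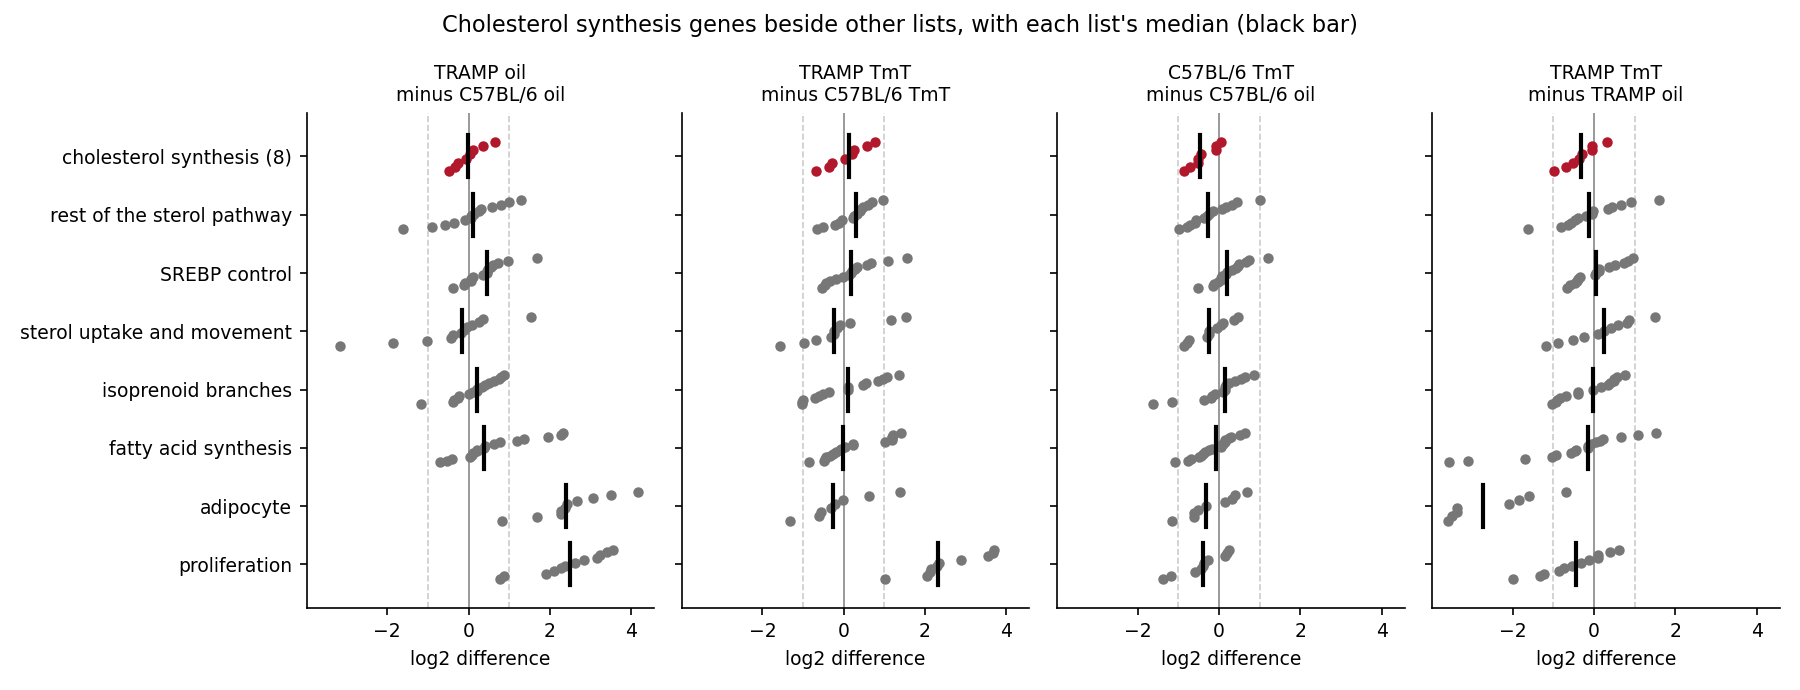
Log2 differences of single genes of 8 lists in the 4 comparisons, for genes well above background on both arrays, with the median of each list as a black bar and dashed lines at a 2-fold difference. The 8 cholesterol synthesis genes stay between the dashed lines in all 4 comparisons, while proliferation genes lie to the right in both genotype comparisons and adipocyte markers lie to the left in TRAMP after TmT.

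The machinery that controls these genes was read from 16 genes of SREBP control, 0 of which passed limma's fit. Srebf2 encodes the SREBP most tied to cholesterol synthesis. It stood at 1.73 on C57BL/6 oil, 1.81 on C57BL/6 TmT, 2.10 on TRAMP oil and 2.13 on TRAMP TmT. Between oil and TmT it was nearly level, at 0.08 ± 0.20 in C57BL/6 and 0.04 ± 0.20 in TRAMP. TRAMP minus C57BL/6 was 0.37 ± 0.20 after oil and 0.32 ± 0.20 after TmT for Srebf2. Scap was at 0.73 ± 0.21 and 0.36 ± 0.21 for TmT, and Insig2, the relative of Insig1 that is not a typical SREBP target, at 0.04 ± 0.20 and 0.13 ± 0.20. Nfyb, a subunit of the factor that binds CCAAT, was at 1.22 ± 0.20 for TmT in C57BL/6 and 0.12 ± 0.20 in TRAMP. The other subunits did not move together, with Nfya at -0.51 ± 0.21 and -0.39 ± 0.21, and Nfyc at 0.48 ± 0.21 and 0.03 ± 0.21. In the list as a whole, 4 of 16 measured genes were below 0 after TmT in C57BL/6 and 6 of 15 in TRAMP, with medians of 0.19 and 0.04.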

How the data were processed

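The authors deposited the output of Agilent Feature Extraction 10.2.1.3, per the file headers, with probe positions on mm9. The values used are its processed signal, a linear intensity that the authors' software had background-subtracted and, on every array except TRAMP TmT, detrended multiplicatively, per the file headers; the deposited value table held the same intensity. Background and outlier flags were deposited in the same files. All 4 arrays lay on 1 slide with 1 scan, so group and position on the slide cannot be told apart.

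Control and outlier-marked spots were left out, spots of a probe were averaged, and a gene was read from its brightest probe with a value on all 4 arrays. Differences and folds were taken where both arrays of a pair had the gene well above background. limma 3.58.1 in R 4.3.3 (lmFit, eBayes, Benjamini-Hochberg) was fitted on the 19925 genes that 2 or more arrays had well above background, and was tested on simulated data. With 1 array per group, the number of arrays limits the precision. Exons or UTRs under the probes were not looked up.

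The members, the gene lists and the tests were chosen with earlier results of these data known. Genes named are the 8 genes, others of the pathway, in other lists at most the 4 largest differences per comparison (Srebf2 and Insig2 were added after their values were seen), and the 5 nearest profiles. Some genes that this rule takes in are not reported here.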

Additional observations from a re-analysis of the deposited data

Results flagged for a closer look

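Effects of opposite sign in the 2 lines, or after the 2 gavages, each larger than 2 times its spot error, were found for 5 items. None of these differences was tested, since each effect rests on 1 pair of arrays. Pmvk was higher after TmT in C57BL/6 (0.44 ± 0.20) and lower in TRAMP (-0.47 ± 0.20). Dhcr7 was lower after TmT in C57BL/6 (-0.70 ± 0.21) and higher in TRAMP (1.60 ± 0.19), and was lower in TRAMP after oil (-1.62 ± 0.19) and higher after TmT (0.69 ± 0.21). The Hmgcs1 probe used was lower in TRAMP after oil (-0.47 ± 0.21) and higher after TmT (0.56 ± 0.22). One Cyp51 probe, not the one used, had genotype differences of -0.68 ± 0.21 after oil and 0.67 ± 0.27 after TmT, which the other 2 probes of Cyp51 did not share.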

How the results depend on the processing

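No paired analysis was possible because each group has 1 array and the labels carry no replicate numbers, and leaving out an array leaves no residual for a fit. Of 109 values of the main results under alternatives, 98 kept their place and 11 moved. This tally takes in the deposited values, which are the same intensities. It also takes in the run without a background filter, although all 8 genes pass that filter. Neither could move the differences of the 8 genes, so their agreement there carries no weight. At a 1.5-fold threshold the count of the 8 genes that differed was 1 for genotype after oil and 2 in each other comparison, against 0 at 2-fold. In TRAMP after TmT, 1 of the 8 was at least 2-fold different with the signal before multiplicative detrending, median centring and quantile normalization (Cyp51, -1.12, -1.07 and -1.02). With the mean over all probes 1 was as well, but it was Fdps (-1.04), and 1 was for genotype after TmT (Idi1, 1.03). The median for TmT in C57BL/6 was -0.47, but -0.28 with the mean over all probes, -0.30 with normexp, and -0.26 with outlier-marked spots kept or with the brightest probe on any array, both chosen after seeing the data. Of 286 values of single genes 41 moved by more than the spot error, and this tally holds the same fixed alternatives. With the mean over all probes 17 of 32 moved, and with normexp 14 of 32. Signs turned for Hmgcs1 in 3 comparisons with the mean over all probes (0.82 for genotype after oil, 0.42 for TmT in C57BL/6, -0.32 in TRAMP), which takes in its probe below background. They also turned for Insig1 in both genotype comparisons with that mean (-0.27 and -0.40) and after TmT with median centring (-0.05). Sqle turned for TmT in C57BL/6 with normexp (-0.11) and before detrending (-0.04), Fdps in TRAMP with normexp (0.07), and Fdft1 there with the mean over all probes (0.01).

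None of the 8 was called by limma under any alternative run. The count of all genes called for genotype was 27, but 0 with the signal before multiplicative detrending, quantile normalization, the mean over all probes and both added alternatives. It was 39 without a background filter, 76 with median centring, 371 with an intensity trend and 1390 with normexp (560 higher, 830 lower). For treatment it was 351 with normexp and 2 with the trend, against 0. Normexp left out 16 spots of the C57BL/6 TmT array and 9 of TRAMP TmT whose local background was over 10 times the array's median, a limit set after seeing the data. It adds an offset of 50, and under it 5.94%, 4.37%, 0.939% and 5.18% of all genes were at least 2-fold different (genotype after oil, after TmT, TmT in C57BL/6, in TRAMP). Without the background filter 11.6% and 22.4% were for TmT in C57BL/6 and in TRAMP. Dim signal over background on the TRAMP TmT array limits its low probes most.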

Other observations

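Some genes of sterol control and transport are given here for their larger differences. Srebf1, whose product acts mainly on fatty acid genes, was highest on the TRAMP TmT array, at 1.51 against 0.69 on TRAMP oil. Tmem97, which binds the lysosomal cholesterol transporter Npc1, had a TRAMP minus C57BL/6 difference of -3.15 ± 0.21 after oil and -1.56 ± 0.21 after TmT. For Stard4, a carrier of sterol between membranes, it was 1.54 ± 0.25 and 1.16 ± 0.27. TmT minus oil for Tmem97 was -0.72 ± 0.20 in C57BL/6, below 0 like 7 of the 8 genes, but 0.86 ± 0.22 in TRAMP. For Stard4 it was 0.47 ± 0.29 and 0.09 ± 0.23. None of Srebf1, Tmem97 and Stard4 passed limma's fit.

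Fatty acid synthesis genes, which share SREBP control in part, were higher in TRAMP after oil for Scd1 (2.32 ± 0.20), Fasn (2.28 ± 0.20) and Thrsp (1.95 ± 0.20). In TRAMP after TmT, Scd1 was at -3.57 ± 0.20 and Thrsp at -3.10 ± 0.23, but Mid1ip1 was at 1.53 ± 0.20. The list's 17 measured genes had a median of -0.15 there, with 4 below and 2 above the 2-fold limit. Adipocyte markers moved with them, with medians of 2.39 and -2.73 in the same pairs of arrays, and their part in these values was not tested. The fasting genes Angptl4 (-3.30 ± 0.18) and Pdk4 (-2.06 ± 0.20) were lower in TRAMP after TmT as well, while Bdh1 was at 1.07 ± 0.21, and the 7 measured fasting genes had a median of -0.46. In C57BL/6 after TmT 7 of 9 fasting genes were above 0, with a median of 0.69. In the isoprenoid branches, Nus1, a subunit of the enzyme that makes dolichol, was at -1.61 ± 0.20 for TmT in C57BL/6 and -0.90 ± 0.21 in TRAMP, and Coq2, which makes ubiquinone, was at -1.04 ± 0.20 in TRAMP. Among genes of cholesterol export, Abca1 was at -0.89 ± 0.20 and -1.37 ± 0.20 for TmT in the 2 lines, and Ch25h, which makes 25-hydroxycholesterol, at 1.54 ± 0.32 in TRAMP.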
